A study of Arabidopsis thaliana with 3 samples.

Results

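The nuclear genes of Arabidopsis thaliana that encode ribosomal proteins of the chloroplast were compared between germinating pollen and seedlings. The members are 39 nuclear loci for proteins of the plastid ribosome, 26 of the large 50S subunit and 13 of the small 30S subunit. A locus counted as measured if the annotation of the array named it as the single gene of at least 1 probe set, and the brightest probe set per gene was used. This left 10 of the 39 genes, 7 of the 50S and 3 of the 30S subunit, out of 13356 genes with a probe set of their own. The other 29 members had no such probe set in the annotation used here and are without values, among them 5 of the 6 whose name calls them plastid-specific.

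The tissue comparison used 3 Affymetrix ATH1 arrays of plants of the accession Col-0, on which a gene is read by a set of short oligonucleotides combined into 1 signal. The germinating pollen group had 2 arrays. Pollen from open flowers was kept in the dark for 6 h at 25°C on agarose with 13.5% sucrose, where about 80% of the grains germinated, per the labels. The seedling group had 1 array of whole young plants, roots included, with their first rosette leaves, grown on agar with sucrose. The design text gives a day of 16 h light at 22°C and 8 h dark at 18°C for the plants, whereas the seedling label gives 18 h light and 6 h dark. All groups share the accession and 10 µg of total RNA per labelling, and the labels name no mutation or transgene. The pollen labels list a lithium chloride precipitation that the seedling label does not, while the design text gives it for all RNA. Any effect of the extraction cannot be told apart from tissue. The design text calls the pollen hybridisation duplicated, with no word on separate plants or cultures. P-values therefore measure only the spread of these 2 arrays, which may be technical.

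Chloroplasts keep a small genome and translate it on ribosomes of the bacterial kind. Most proteins of these ribosomes are encoded in the nucleus, made in the cytosol and imported, and a smaller number are encoded in the plastid genome itself. In green tissue plastid ribosomes make core subunits of the photosystems and of Rubisco, whereas the plastids of pollen are not green. Names and roles of the proteins given here are general knowledge of these Arabidopsis loci or of their bacterial counterparts, since the gene table carries only the locus for the 10 measured genes.

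The pollen and seedling labels were checked against marker genes. All 8 measured pollen markers were higher in germinating pollen, with summed signals of 102017 and 101477 on the pollen arrays against 301.3 on the seedling array. All 7 measured genes of green tissue were lower, and their signals summed to 174 and 199 in pollen and to 39464 in seedlings. Across the 22746 probe sets the log2 signals of the pollen arrays correlated at r = 0.906, a value across genes, which are not independent replicates. Control probe sets without a target reached 47.1 on pollen array 1, 65.7 on pollen array 2 and 14.3 on the seedling array. A pollen signal at or under the control level of its own array is called dim here, and a fold against dim signals is given as a lower bound with those signals raised to that level. Folds are ratios of geometric means of the scaled signals.

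The plastid ribosomal protein genes were lower in germinating pollen in all 10 measured cases. The median log2 difference between germinating pollen and seedlings was -4.92 over the 10 genes and -0.61 over all 14812 tested probe sets, and the single genes lay between -6.19 and -3.20. Here 31.7% of the tested probe sets were called lower (limma, Benjamini-Hochberg adjusted p under 0.05), and 22.1% were called higher. Adjusted p-values of the members ran from 0.00027 to 0.00361 in limma, which here takes the spread of the 2 pollen arrays for that of the lone seedling array as well. For each of the 10 members both pollen signals lay under its seedling signal, as for 42.2% of all probe sets. All 10 entered the test on their seedling signal, and 4 would also have entered it on their pollen signals. The rest passed the filter only through the group in which they were high, which favours a lower call. The share of 31.7% also includes probe sets that entered on their pollen signals, so the count of 10 is not a like comparison with it.

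Without a test, 9 of the 10 members were at least 10-fold lower on each pollen array, a size reached by 4.95% of all probe sets. In that count signals under 42.3, the median of all signals and the floor of the analysis, were raised to it. Only a probe set with a seedling signal of at least 10 times the floor could be counted. All 10 members had such a signal, the lowest being 733.7. The share of 4.95% also includes probe sets too dim in seedlings to be counted, so it is not a like comparison. PSRP1, the exception, was 13.1-fold lower on pollen array 1 and 9.23-fold lower on array 2. The arrays are bulk samples, so fewer cells with green plastids and less of these transcripts per cell cannot be told apart. The green tissue markers moved with the members, and their part in the result was not tested.

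**Figure D1:**
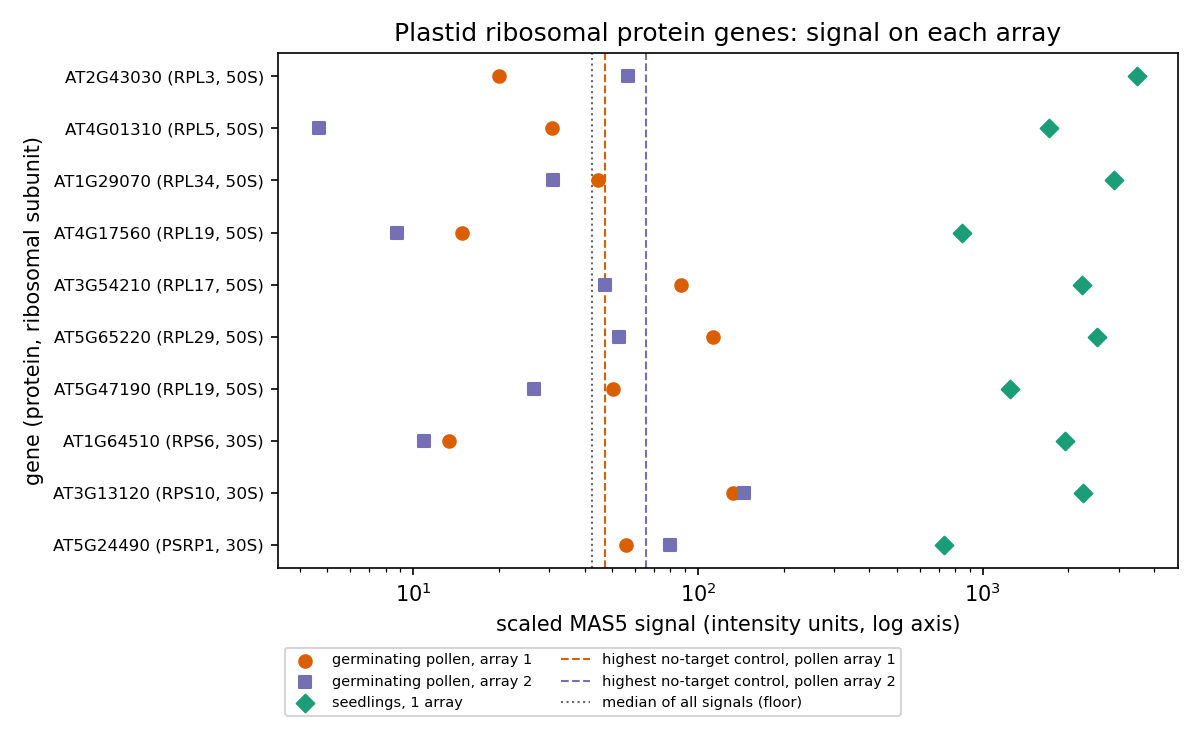
Scaled MAS5 signal (log axis) of the 10 measured plastid ribosomal protein genes on germinating pollen array 1 (circles), germinating pollen array 2 (squares) and the seedling array (diamonds); the dashed lines mark the highest no-target control of each pollen array and the dotted line the floor of 42.3. Pollen signals lie between 4.69 and 145, seedling signals between 734 and 3470.3.

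The genes of the 50S subunit are given first. AT2G43030 encodes L3, a protein that binds ribosomal RNA early in assembly of the bacterial large subunit. Its signal was 20.1 and 56.7 in pollen against 3470.3 in seedlings. Both pollen signals were dim, so L3 was at least 62.4-fold lower, with a log2 difference of -6.13 ± 0.50 (SE, limma, adjusted p = 0.00179). With the offset of 14.7 that was added to all signals before log2, the pollen arrays differed by 1.04 log2 units on it. That gap was small beside the distance to the seedling array, but the offset shrinks gaps between dim signals.

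AT4G01310 encodes L5, which carries the 5S ribosomal RNA in bacterial ribosomes. Its signal was 30.8 and 4.69 in pollen against 1704 in seedlings, so L5 was at least 30.6-fold lower. With the offset added, the pollen arrays lay 1.23 log2 units apart on L5, the widest gap of the 10 members. Both signals were dim, where the offset shrinks such a gap. The log2 difference of L5, -5.85 ± 0.64 (SE, limma, adjusted p = 0.00361), had the largest error of the members.

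AT1G29070 encodes L34, one of the smallest proteins of the bacterial large subunit. Its signal was 44.6 and 31.1 in pollen against 2899 in seedlings. L34 was at least 52.1-fold lower, with a log2 difference of -5.80 ± 0.28 (SE, limma, adjusted p = 0.000426). Its pollen signals were dim on both arrays, and the seedling signal was far above any control.

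The protein L19 lies in bacteria at the interface of the subunits and is encoded by a pair of nuclear genes in Arabidopsis, both of them measured. AT4G17560 was at least 15.1-fold lower, at 14.9 and 8.75 in pollen against 843 in seedlings (limma, adjusted p = 0.00278). AT5G47190 was at least 21.7-fold lower, at 50.3 and 26.6 in pollen against 1248 in seedlings (limma, adjusted p = 0.00216). Both copies were called lower, and their log2 differences of -5.02 ± 0.49 and -4.61 ± 0.40 (SE) lay 0.42 apart. AT5G47190 exceeded the control level on pollen array 1 only, and AT4G17560 on neither. The difference between the copies was not tested. Both probe sets carry the plain _at suffix, which Affymetrix gave to probe sets designed for 1 transcript, as do those of all 10 members.

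The other measured genes of the large subunit are AT3G54210 and AT5G65220. The first encodes L17 and the second L29, a protein at the exit of the peptide tunnel. L17 had 87.1 and 47.3 in pollen against 2235 in seedlings. L29 had 113 and 53.0 in pollen against 2520.2 in seedlings. For both genes pollen array 1 was above its control level and array 2 was not, so 1 of 2 pollen arrays measured them. L17 was at least 29.5-fold lower and L29 at least 29.3-fold. Their log2 differences were -4.82 ± 0.37 and -4.77 ± 0.43 (SE; limma, adjusted p = 0.00149 and 0.00236). With no offset and signals raised to the floor, neither passed (limma, adjusted p = 0.0665 for AT3G54210 and 0.086 for AT5G65220).

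Of the 3 measured genes of the 30S subunit, 2 were above the controls on both pollen arrays and 1 on neither. AT1G64510 encodes S6, a protein of the platform of the small subunit. Its signal was 13.3 and 10.9 in pollen against 1949.8 in seedlings, at least 35.0-fold lower. Its log2 difference was -6.19 ± 0.38 (SE, limma, adjusted p = 0.000818). The pollen arrays lay close together on S6, and both signals were far under the controls.

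AT3G13120 encodes S10, which in bacteria also takes part in transcription antitermination. Its signal was 133 and 145 in pollen against 2245 in seedlings, 16.2-fold lower. Both pollen signals exceeded the control level, by a factor of more than 2 on each array. S10 was thus measured in both tissues, and it had the smallest error of the members, with a log2 difference of -3.88 ± 0.16 (SE, limma, adjusted p = 0.00027). With the offset added, the pollen arrays differed by 0.11 log2 units on S10, the closest pair of the 10 members.

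AT5G24490 encodes PSRP1, a plastid counterpart of the bacterial factors that hold idle ribosomes inactive, and not a structural protein in the strict sense. Its signal was 55.9 and 79.5 in pollen against 734 in seedlings, 11.0-fold lower. The log2 difference of -3.20 ± 0.32 (SE, limma, adjusted p = 0.00284) was nearest to 0 of all members. Both pollen signals lay just above the control level of their array, so the fold is uncertain. With no offset and signals raised to the floor, PSRP1 did not pass (limma, adjusted p = 0.0558). Among the tested probe sets, 88.2% had a less negative log2 difference than AT5G24490 and 99.0% a less negative one than AT1G64510, the ends of the members' range.

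**Figure D2:**
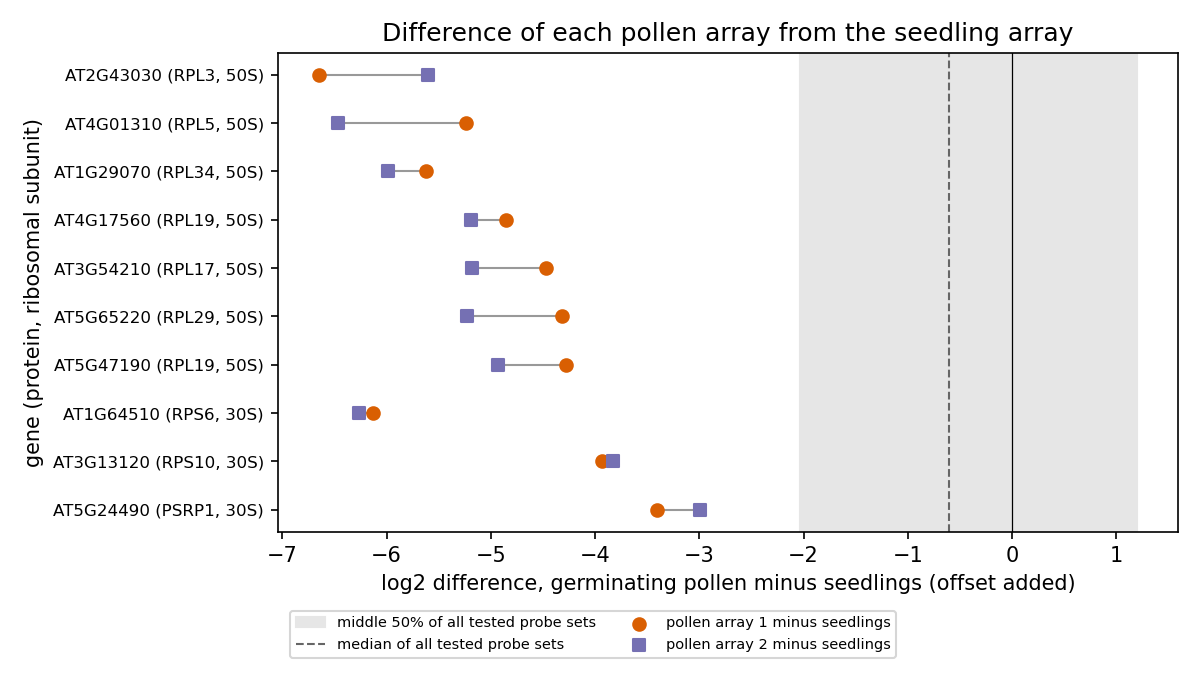
Log2 difference of each pollen array from the seedling array for the 10 measured members, with an offset of 14.7 added to all signals; circles are pollen array 1, squares pollen array 2, the grey band holds the middle 50% of all 14812 tested probe sets and the dashed line is their median of -0.61. Every member lies left of the band on both arrays, from -6.65 to -2.99.

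The members also differed in how well the pollen arrays agreed. The absolute gap between the arrays, with the offset added, had a median of 0.53 log2 units over the 10 members. Array 1 gave the higher signal for 7 members and array 2 for 3, so neither array was lower throughout. In pollen 2 members were above the control level on both arrays, 3 on 1 array and 5 on neither. For the last 5 genes the data give a lower bound of the fold, between 15.1 and 62.4, and the pollen level itself was not measured. A pollen signal under the controls does not show that the transcript was absent.

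The plastid genome encodes further proteins of the same ribosome, and 15 of 21 such genes had a probe set of their own. Of the 14 tested, 13 were lower in pollen and 1 did not pass, with a median log2 difference of -4.46 over the 15. None of the 15 exceeded the control level on either pollen array, so their pollen levels were not measured. All 14 entered the test on their seedling signal alone, which favours a lower call, and the median depends on the offset. With 9.12 and 9.94 in pollen against 3452 in seedlings, rpl33 was at least 62.0-fold lower. The bounds were 50.5-fold lower for rpl22 and 32.9-fold lower for rps19. The gene rps15 did not pass, with 40.2 and 61.4 in pollen against 169 in seedlings (limma, adjusted p = 0.0637). It was called lower with spike scaling (limma, adjusted p = 0.00392) and without the variance trend (adjusted p = 0.0498). The gene rps14 was not tested, since it lay under the floor on all arrays, at 18.6 and 7.61 in pollen against 24.5 in seedlings. Nuclear and plastid genes of the plastid ribosome together gave 25 measured genes, of which 23 of 24 tested were lower. Over all tested probe sets that share was 31.7%, which includes probe sets that entered on their pollen signals. Plastid transcripts mostly lack stable poly(A) tails, and the standard one-cycle labelling of these arrays starts from poly(A), so their signals may not follow their amount.

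Genes that act with the plastid ribosome were lower in part, to be read beside the 31.7% of all tested probe sets that were called lower. Of 7 measured genes in a list of 15 translation factors, all but PDF1A with known roles in plastids, 5 were lower and 2 did not pass. All 5 entered the test on their seedling signal alone, which favours a lower call. The 31.7% also includes probe sets that entered on their pollen signals, so it is not a like comparison. FUG1, the plastid initiation factor IF-2, was at least 28.0-fold lower, with 16.3 and 19.1 in pollen against 1558 in seedlings. AT4G11175, the plastid IF-1, was at least 9.55-fold lower, and PDF1B, a deformylase that acts on new plastid proteins, at least 6.02-fold lower. PDF1A, a related deformylase known from mitochondria, missed the threshold with 152 and 164 in pollen against 104 in seedlings (limma, adjusted p = 0.183). PDF1A was called higher with quantile normalisation (limma, adjusted p = 0.049) and with 75th percentile scaling (adjusted p = 0.0411), and lower with spike scaling (adjusted p = 0.0107). AT4G30690, an IF-3, had 42.1 and 81.4 in pollen against 87.8 in seedlings (limma, adjusted p = 0.514). With spike scaling AT4G30690 was called lower (limma, adjusted p = 0.016).

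Of 15 genes for assembly of plastid ribosomes and maturation of their RNA, 4 were measured and 2 were lower. Both lower genes entered the test on their seedling signal alone, which favours a lower call. With 31.7% of all tested probe sets called lower, so few genes do not set this list apart. AT5G14910, known as CRASS, read 3.37 and 82.7 in pollen against 1274 in seedlings, so the pollen arrays disagreed widely. It was at least 20.4-fold lower, with a log2 difference of -4.94 ± 1.09 (SE, limma, adjusted p = 0.0235). The call of AT5G14910 was lost with signals raised to the floor (limma, adjusted p = 0.0866) and without the variance trend (adjusted p = 0.0575). PAC had 7.86 and 13.0 in pollen against 78.0 in seedlings. Both pollen signals were dim, so PAC was at least 1.40-fold lower and its size of change was not measured. RAP did not pass, with 107 and 92.0 in pollen against 156 in seedlings (limma, adjusted p = 0.209). RH39 did not pass either, at 55.9 and 6.41 in pollen against 102 in seedlings (limma, adjusted p = 0.191).

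The ribosomes of the other compartments were set beside the plastid ribosome. Of 38 cytosolic ribosomal protein genes 9 were measured, and all 9 were lower, beside 31.7% of all tested probe sets. Only AT2G27530 (PGY1), AT5G02870 and AT5G27700 exceeded the floor on both pollen arrays. The rest passed the filter only through the seedling array, which favours a lower call. The count of 9 is therefore not a like comparison with that share. Their median log2 difference was -5.20, with a range from -6.78 to -3.69. With no offset and signals raised to the floor, 7 of the 9 passed, and AT3G09630 and AT5G27700 did not (limma, adjusted p = 0.068 and 0.0619). AT3G53890, a cytosolic S21, was at least 35.1-fold lower, with 2.87 and 3.38 in pollen against 1950.4 in seedlings. AT2G19730, a cytosolic L28, was at least 39.2-fold lower. PGY1, a cytosolic L10a, was above the controls on both pollen arrays, with 134 and 123 in pollen against 1831 in seedlings, 14.2-fold lower. The median and range of the cytosolic genes lay close to those of the plastid ribosomal protein genes, and a difference between the lists was not tested.

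The mitochondrial ribosome had 3 measured genes of 8 listed, with 1 lower, 1 higher and 1 that did not pass. Over all tested probe sets 31.7% were called lower and 22.1% higher, so these counts do not set the list apart. AT1G15810, listed here as a mitochondrial S15, had 232 and 215 in pollen against 102 in seedlings, 2.19-fold higher (limma, adjusted p = 0.0292). When arrays were scaled by their hybridisation spikes, AT1G15810 turned to a log2 difference of -1.07. Its call was lost with no filter on dim probe sets (limma, adjusted p = 0.0521) and without the variance trend (adjusted p = 0.06). AT3G49080, a mitochondrial S9, was at least 2.97-fold lower (limma, adjusted p = 0.0451). The call of AT3G49080 was lost under 5 alternatives of scaling, filter, floor and variance prior, with adjusted p from 0.0577 to 0.0973 in limma. AT5G64670, a mitochondrial L15, had 28.2 and 68.2 in pollen against 108 in seedlings.

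**Figure D3:**
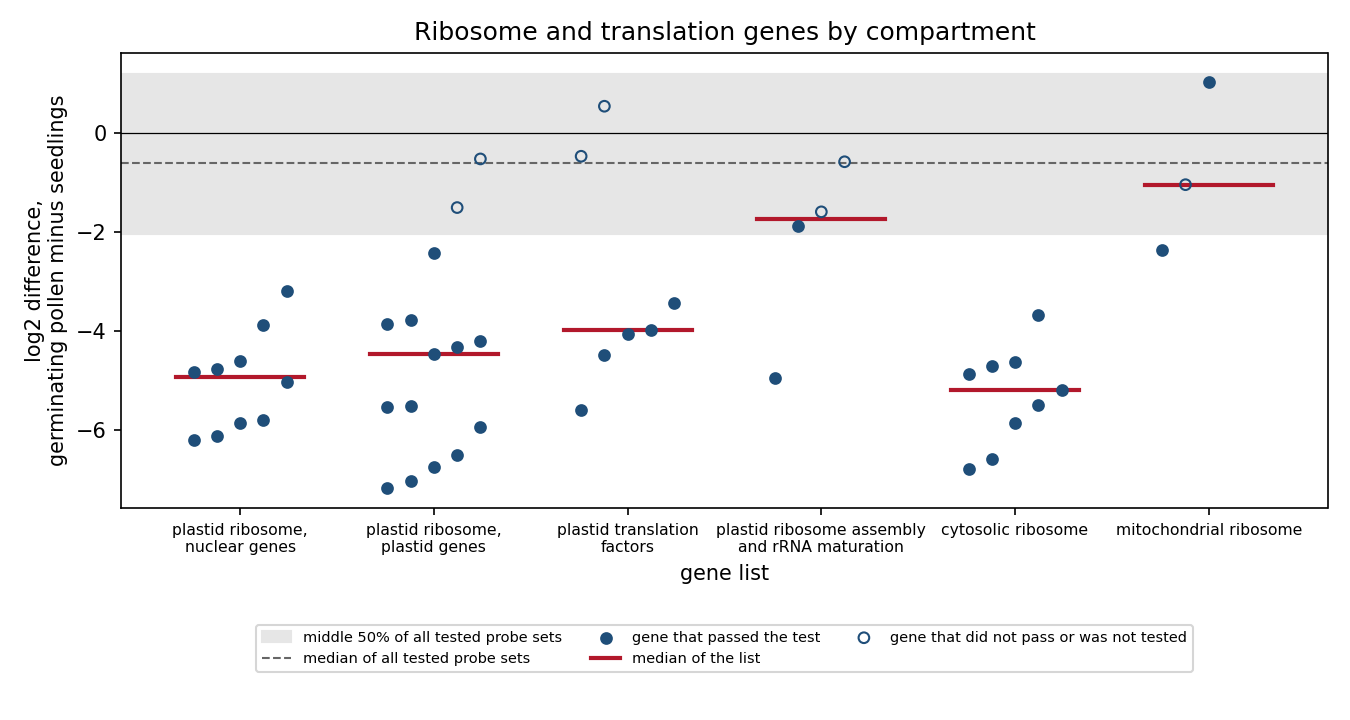
Log2 difference between germinating pollen and seedlings for each measured gene of the nuclear and plastid genes of the plastid ribosome and of 4 related lists; filled points passed the test, open points did not pass or were not tested, red bars are list medians, and the grey band and dashed line are the middle 50% and the median of all tested probe sets. The nuclear plastid genes (median -4.92) and the cytosolic genes (median -5.20) lie below the band, while the 3 mitochondrial genes lie from -2.36 to 1.03.

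The size of the members' differences depended on the scaling between arrays, and their direction did not. Signals of the hybridisation spikes on pollen arrays 1 and 2 were 4.76 and 4.90 times those in the seedling hybridisation. Scaling by them moved the median of all tested probe sets to -2.25 and that of the members to -6.94. Scaling by the 75th percentile moved these medians to 0.02 and -4.43, and quantile normalisation to -0.26 and -5.77. Relative to the median of all tested probe sets, the members' median was -4.32 in the main scaling, -4.69 with spikes, -4.44 with the 75th percentile and -5.51 with quantiles. All 10 members were lower under each of these scalings. Of all calls, 41.1% were higher in pollen in the main scaling, 11.1% with spikes and 53.1% with the 75th percentile.

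Markers of tissues other than pollen were read on the same arrays. Of 6 measured genes of the anther wall and other flower organs, 4 were tested, 1 was lower and 3 did not pass, and their signals summed to 334 and 378 in pollen and to 198 in seedlings. The defining tapetum genes A9 and AMS had at most 49.0 in pollen and were dim on both arrays. SPT (pollen 105.9 and 130.6, seedlings 39.6) and NGA2 (pollen 106.7 and 102.2, seedlings 56.2) exceeded the control level on both pollen arrays. RBE (pollen 91.0 and 54.8, seedlings 11.3) exceeded it on pollen array 1 only. These 3 genes did not pass. NGA1, the gene called lower, was dim on both arrays (pollen 6.23 and 2.81, seedlings 87.8). A share of other flower tissue in the pollen samples was not tested. Of the root hair markers EXPA7 and EXPA18, 1 was higher in pollen and 1 did not pass, and their signals summed to 234 and 157 in pollen and to 45.6 in seedlings. EXPA7 was the gene called higher. Seedling signals of 22.0 for EXPA7 and 23.6 for EXPA18 lay under the floor, so their seedling levels were not measured. EXPA18 exceeded the control level on pollen array 1 only.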

How the data were processed

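Total RNA of 2 germinating pollen arrays and 1 seedling array was analysed. The deposited values are intensity values on a linear scale, which the authors computed with MAS5 (no version is stated) per the submitters' processing notes. GCOS 1.2 and Excel 2004 are the programs in the design text. The deposited arrays already shared a 2% trimmed mean of 122. Detection calls and scanner files were not used here.

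Of 22810 probe sets, 64 controls were left out of tests, 27 of which have no target. The platform annotation gave 1 gene for 13513 probe sets, several for 503 and did not list 8730; genes were matched by gene identifier to the TAIR10.1 table, used for names only. Signals were rescaled to equal trimmed means, an offset of 14.7 (their 30th percentile) was added before log2, which understates differences of dim genes, and a probe set was tested if it exceeded 42.3, the pooled median, in seedlings or on both arrays of pollen. limma 3.58.1 in R 4.3.3 (lmFit, eBayes with a variance trend, two-sided) was fitted to all 3 arrays with 1 residual degree of freedom. It was also run on simulated data, with known differences placed only in probe sets of higher pollen signal than most. There the seedling array was given the spread of the pollen arrays. Genes of low pollen signal and a different spread in seedlings were therefore not covered. The number of arrays limits the precision.

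The members and the 9 other lists were chosen with earlier results of these data known. All members with a probe set are described; values per array follow a rule on calls, control levels, gene pairs, plastid-specific proteins and the 3 largest differences per subunit, with L17 and L29 added as the remaining members. Of each other list, minority calls and up to 3 of the largest differences were to be named; further genes of those lists were named after their values were seen. Alternatives changed scaling, offset, filter, floor, variance prior, probe set choice and pollen array.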

Additional observations from a re-analysis of the deposited data

How the results depend on the processing

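All 10 members stayed negative under every alternative tried, the value nearest to 0 being -2.67, and all 10 were called lower except with signals raised to the floor, where 7 were (AT3G54210, AT5G65220 and AT5G24490 were lost; raised signals have no spread between arrays, which also changes the variance prior). The members' median was -6.94 with spike scaling, -5.77 with quantile normalisation and -4.43 with 75th percentile scaling. Leaving out 1 pollen array, which allows no test, gave medians from -5.21 to -4.66 and 9 to 10 members at least 10-fold lower, AT5G24490 joining without array 2. Spike scaling called 11844 probe sets lower against 4692. Among plastid-encoded genes the lower calls were 15 with spike scaling, 14 with no variance trend and 12 with no filter. With no filter rpl20 was lost (limma, adjusted p = 0.0624). Among translation factors the lower calls were 7 with spike scaling and 4 with signals raised to the floor, where AT5G08650 was lost (limma, adjusted p = 0.0735). The lower calls among assembly genes were 4 with spike scaling, and 1 with signals raised to the floor, with no filter or with no variance trend, PAC being lost with no filter and AT5G14910 (CRASS) in the other 2. Those among mitochondrial genes were 3 with spike scaling and 0 with quantile normalisation, 75th percentile scaling, no filter, a floor at the controls or no variance trend; the cause was not tested. AT1G15810 turned to -1.07 and AT1G15390 (PDF1A) to -1.54 with spike scaling, and AT4G30690 to 0.004 with 75th percentile scaling; PDF1A was 1.00 with quantile normalisation and 1.05 with 75th percentile scaling, both called higher. With signals raised to the floor 7 of 9 cytosolic genes were called lower. The alternative with signals raised to the control level of each array was chosen after seeing the data, and gave a median of -4.88 without a test. No paired analysis was possible because the seedling group has 1 array with no replicate number. The 5 members dim on both pollen arrays have only bounds.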
